A study of Mus musculus with 24 samples.

Results

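Mitochondrial proteases and chaperones were followed in mouse liver through 9 genes: the protease subunits Clpx, Clpp, Lonp1, Afg3l2, Spg7 and Yme1l1, and the chaperones Hspd1, Hspe1 and Hspa9. They are 9 of the 19938 genes that carry a probe set with a single symbol in the array annotation. The genes were chosen by name with earlier results of these arrays known, among them the low Clpx signal in alb-SREBP-1a∆P liver, and each was read from its probe set of highest mean log2 signal over the 24 arrays. Hspd1 and Hspe1 have a pair of such probe sets each, so 11 probe sets stand behind the 9 genes.

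RNA of whole liver was measured on 24 arrays, 1 for each mouse and 8 for each genotype. alb-SREBP-1a∆P mice carry the N-terminal domain of human SREBP-1a with an HA tag and without its MAPK phosphorylation sites, and alb-SREBP-1a mice carry the same domain with those sites. C57Bl6 mice without a transgene served as controls, and both lines are on the C57Bl6 background. All animals were males of 24 weeks fed standard chow. SREBP-1a is a transcription factor of lipid synthesis, and the albumin promoter drives the transgene in hepatocytes, while the array reads all cells of the liver. In such bulk tissue fewer cells of a type and less RNA per cell cannot be told apart. The values are log2 signals, and a change is the difference of genotype means, alb-SREBP-1a∆P or alb-SREBP-1a minus its comparison genotype, ± standard error. A gene rose or fell where the limma p, adjusted over all 35556 probe sets, was under 0.05. The C57Bl6 arrays are shared by both transgenic comparisons and the alb-SREBP-1a∆P arrays by both comparisons of that line. The alb-SREBP-1a arrays are set against C57Bl6 liver and are also the reference for alb-SREBP-1a∆P liver. No comparison is thus independent of the others.

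Proteins of the mitochondrial matrix are folded and degraded by machines of bacterial descent. CLPX is a ring-shaped ATPase that unfolds proteins and feeds them to the chambered peptidase CLPP, and LONP1 carries ATPase and peptidase in 1 chain. AFG3L2 and paraplegin, the product of Spg7, form the protease of the inner membrane that faces the matrix, and YME1L1 forms the one that faces the intermembrane space. HSPA9 pulls imported proteins into the matrix, where the chaperonin HSPD1 and its lid HSPE1 enclose them for folding. In liver these machines also act on enzymes of heme synthesis, on the packaging of mitochondrial DNA and on the ribosomes of the organelle.

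The sequence upstream of the genes is shown for those whose signals moved furthest or lie side by side in the genome. All sequences are from RefSeq on GRCm38.p6, written 5′ to 3′ on the strand of the gene, with 1 motif in capitals each for Clpx and Lonp1. For Clpx, chr9:65294010-65294250, the capitals mark the core bound by NRF-1, a factor of many mitochondrial genes, read on the opposite strand. For Lonp1, chr17:56626904-56627153 on the minus strand, they mark an E-box.
Clpx: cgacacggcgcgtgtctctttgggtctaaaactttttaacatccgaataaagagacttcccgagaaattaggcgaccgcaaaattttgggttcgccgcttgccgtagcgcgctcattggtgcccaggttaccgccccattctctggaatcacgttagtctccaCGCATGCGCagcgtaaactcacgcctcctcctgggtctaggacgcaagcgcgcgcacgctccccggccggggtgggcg
Lonp1: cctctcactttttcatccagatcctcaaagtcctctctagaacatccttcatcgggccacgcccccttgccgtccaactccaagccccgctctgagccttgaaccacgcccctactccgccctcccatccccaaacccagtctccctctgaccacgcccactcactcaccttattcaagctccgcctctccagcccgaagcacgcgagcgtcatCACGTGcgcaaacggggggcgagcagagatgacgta

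Hspd1 and Hspe1 lie head to head on chromosome 1 and are transcribed away from each other. The 215 bases between their starts, chr1:55087933-55088147, are given on the strand of Hspe1. The first capitals mark a heat shock element and the others the nuclear receptor motif AGGTCA. Another listed start of Hspd1 lies at 55088243, inside Hspe1, so that the longer Hspd1 transcript spans this stretch.
Hspd1 and Hspe1: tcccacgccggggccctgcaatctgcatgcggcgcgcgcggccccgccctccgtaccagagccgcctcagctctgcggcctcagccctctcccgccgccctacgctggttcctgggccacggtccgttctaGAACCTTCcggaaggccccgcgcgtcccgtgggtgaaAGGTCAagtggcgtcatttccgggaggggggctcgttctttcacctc

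The motifs were searched on both strands in windows of 300 bases around the gene starts, 32851 windows in all. The table held 8 windows for 7 of the 9 genes and none for Afg3l2 and Hspa9. The NRF-1 core GCGCATGCG was found in 1.75% of all windows, and among the genes in Clpx. GAANNTTC of heat shock elements was found in 7.86% of all windows, and among the genes in Hspd1 and Hspe1, where both windows hold the same site. AGGTCA was found in 16.3% of windows, again with 1 site shared by Hspd1 and Hspe1. The E-box CACGTG was found in 7.15% of windows, and in those of Lonp1 and of the other Hspd1 start. No window of the 7 genes held TGATGNAA of ATF4 and CHOP elements (3.97% of windows) or TCACNCCAC of sterol regulatory elements (1.24%), which says only that these letters are not there.

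In alb-SREBP-1a∆P liver 8 of the 9 genes fell against C57Bl6 liver, where 20.2% of all probe sets fell and 27.0% rose. Clpp did not pass the test, and Clpx was known to be low in this line when the genes were chosen. The change of the 9 genes ranged between −0.18 and −1.62 with a median of −0.74, against 0.11 over all probe sets. Against alb-SREBP-1a liver all 9 fell in the deposited values, with a median of −0.42, against 0.08 over all probe sets, of which 21.4% fell and 22.8% rose. After quantile normalization or cyclic loess 4 of the 9 remained called there, namely Clpx, Lonp1, Yme1l1 and Hspa9, and Clpp stood at 0.01 under loess. Under these scalings 13.8% and 10.4% of all probe sets fell in the same comparison. In alb-SREBP-1a liver 4 genes, Clpx, Lonp1, Afg3l2 and Hspd1, fell against C57Bl6 liver, where 3.98% of all probe sets fell and 6.77% rose. The median there was −0.31, against 0.01 over all probe sets. No gene of the 9 rose in any comparison by limma, at an unadjusted p under 0.05 or by the methods' t-test.

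**Figure D1:**
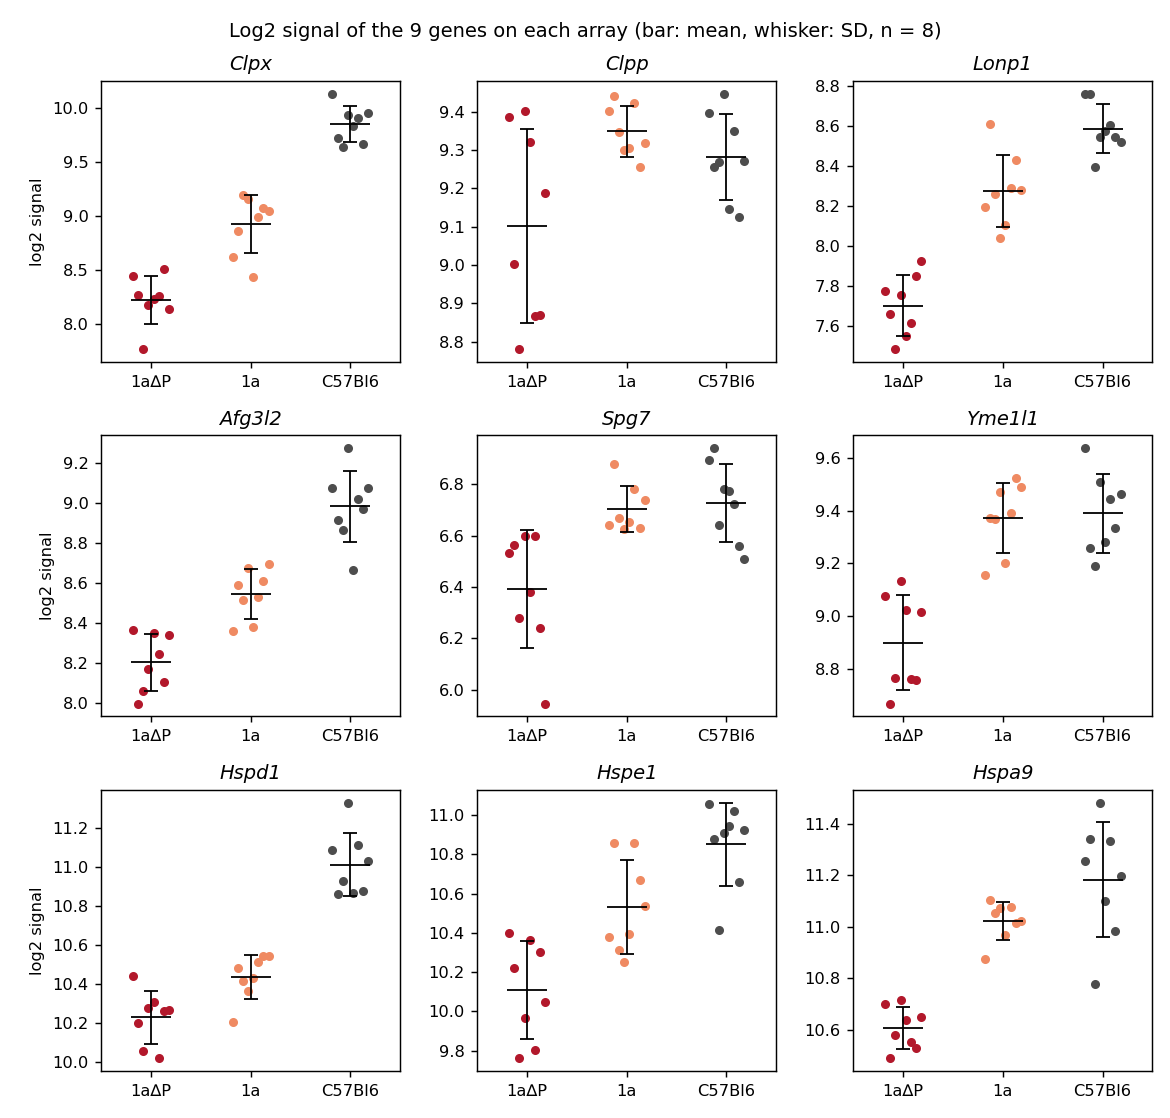
Log2 signal (vertical axes, separate for each gene) of the 9 genes on each of the 24 arrays in alb-SREBP-1a∆P (1a∆P), alb-SREBP-1a (1a) and C57Bl6 liver, with mean and SD of 8 arrays. Clpx, Lonp1 and Afg3l2 are lowest in alb-SREBP-1a∆P liver, intermediate in alb-SREBP-1a liver and highest in C57Bl6 liver, Hspd1 is low in both lines, and Yme1l1, Spg7 and Hspa9 are lower in alb-SREBP-1a∆P liver than in both others.

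Clpx, the ATPase that opens proteins for CLPP, had the most negative change of the 9 genes in every comparison by the probe sets used. Its signals ran from 7.77 to 8.51 with a median of 8.25 in alb-SREBP-1a∆P liver, from 8.44 to 9.20 with a median of 9.02 in alb-SREBP-1a liver and from 9.64 to 10.13 with a median of 9.87 in C57Bl6 liver. Every array of both lines lay below every C57Bl6 array, and 6 of 8 in alb-SREBP-1a∆P liver were also below the alb-SREBP-1a range. The signal in alb-SREBP-1a∆P liver was 32.6% of that in C57Bl6 liver (−1.62 ± 0.10) and 61.8% of that in alb-SREBP-1a liver (−0.70 ± 0.12). Since the low Clpx signal of this line was known when the genes were chosen, these values are a description and no p is given. In alb-SREBP-1a liver Clpx fell to 52.7% of the C57Bl6 signal, a change of −0.92 ± 0.11 (limma, adjusted p = 4.81e-05). That test shares its C57Bl6 arrays with the values above and is not independent of them. The other Hspd1 probe set, not used for the ranking, also stood at −0.92 in alb-SREBP-1a against C57Bl6 liver.

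Clpp, the peptidase that CLPX serves, moved far less. The log2 signal of Clpp ran from 8.78 to 9.40 with a median of 9.10 in alb-SREBP-1a∆P liver, from 9.25 to 9.44 with a median of 9.33 in alb-SREBP-1a liver and from 9.13 to 9.45 with a median of 9.27 in C57Bl6 liver. The 3 ranges overlap, and the alb-SREBP-1a∆P arrays spread widest, with an SD of 0.25 against 0.07 in alb-SREBP-1a and 0.11 in C57Bl6 liver. The changes against C57Bl6 liver, −0.18 ± 0.10 in alb-SREBP-1a∆P and 0.07 ± 0.06 in alb-SREBP-1a, did not pass the test (limma, adjusted p = 0.149 and 0.544). Against alb-SREBP-1a liver the difference of −0.25 ± 0.10 in alb-SREBP-1a∆P passed narrowly (limma, adjusted p = 0.0476). Without alb-SREBP-1a replicates 1 and 2 its adjusted p was 0.118, and under cyclic loess the value was 0.01.

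Lonp1 encodes the LON protease, which removes oxidised matrix proteins and unbound TFAM. Arrays ranged from 7.49 to 7.93 with a median of 7.71 in alb-SREBP-1a∆P liver, from 8.04 to 8.61 with a median of 8.27 in alb-SREBP-1a liver and from 8.40 to 8.76 with a median of 8.56 in C57Bl6 liver. The alb-SREBP-1a∆P values were below those of all 16 other arrays, and 6 of 8 in alb-SREBP-1a liver were below the C57Bl6 range. Lonp1 fell by 0.89 ± 0.08 in alb-SREBP-1a∆P liver against C57Bl6 liver (limma, adjusted p = 4.23e-07) and by 0.57 ± 0.09 against alb-SREBP-1a liver (limma, adjusted p = 0.000264). In alb-SREBP-1a liver it fell by 0.31 ± 0.08 against C57Bl6 liver (limma, adjusted p = 0.0209).

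Afg3l2 encodes the main subunit of the protease that faces the matrix. Its values reached from 7.996 to 8.36 with a median of 8.21 in alb-SREBP-1a∆P liver, from 8.36 to 8.70 with a median of 8.56 in alb-SREBP-1a liver and from 8.66 to 9.27 with a median of 8.99 in C57Bl6 liver. The 3 genotypes stand one under the other, with 7 of 8 values in alb-SREBP-1a∆P liver under the alb-SREBP-1a range and 6 of 8 in alb-SREBP-1a liver under the C57Bl6 range. Afg3l2 fell by 0.78 ± 0.09 in alb-SREBP-1a∆P liver against C57Bl6 liver (limma, adjusted p = 3.84e-06) and by 0.44 ± 0.08 in alb-SREBP-1a liver against C57Bl6 liver (limma, adjusted p = 0.00202). The fall of 0.34 ± 0.08 in alb-SREBP-1a∆P liver against that of alb-SREBP-1a (limma, adjusted p = 0.00276) was −0.06 under cyclic loess (limma, adjusted p = 0.573) and −0.13 after quantile normalization (limma, adjusted p = 0.192).

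Spg7, which encodes the paraplegin partner of AFG3L2, is the dimmest of the 11 probe sets, at a mean of 6.61 over 24 arrays. The arrays gave values from 5.94 to 6.60 with a median of 6.46 in alb-SREBP-1a∆P liver, from 6.63 to 6.88 with a median of 6.66 in alb-SREBP-1a liver and from 6.51 to 6.94 with a median of 6.75 in C57Bl6 liver. The alb-SREBP-1a∆P values were all under the alb-SREBP-1a range and 4 of 8 under the C57Bl6 range, while both other genotypes overlap. Spg7 fell by 0.33 ± 0.10 in alb-SREBP-1a∆P against C57Bl6 liver (limma, adjusted p = 0.0118) and by 0.31 ± 0.09 against alb-SREBP-1a liver (limma, adjusted p = 0.0135). Under cyclic loess neither passed (−0.21 and −0.18). The value in alb-SREBP-1a against C57Bl6 liver was −0.03 ± 0.07 (limma, adjusted p = 0.873).

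Yme1l1 encodes the protease that faces the intermembrane space and trims the fusion protein OPA1. Its signals ran from 8.67 to 9.13 with a median of 8.89 in alb-SREBP-1a∆P liver, from 9.16 to 9.52 with a median of 9.38 in alb-SREBP-1a liver and from 9.19 to 9.64 with a median of 9.39 in C57Bl6 liver. alb-SREBP-1a∆P liver was below all 16 other arrays, and the ranges of alb-SREBP-1a and C57Bl6 liver nearly coincide. Yme1l1 fell by 0.49 ± 0.09 in alb-SREBP-1a∆P against C57Bl6 liver (limma, adjusted p = 0.000316) and by 0.47 ± 0.09 against alb-SREBP-1a liver (limma, adjusted p = 0.000673). The value in alb-SREBP-1a against C57Bl6 liver was −0.02 ± 0.08 (limma, adjusted p = 0.916).

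Hspd1 encodes the chaperonin HSP60. Its log2 signals ranged from 10.02 to 10.44 with a median of 10.26 in alb-SREBP-1a∆P liver, from 10.21 to 10.54 with a median of 10.45 in alb-SREBP-1a liver and from 10.86 to 11.33 with a median of 10.98 in C57Bl6 liver. Both lines lay below every C57Bl6 array and overlapped each other, with 3 of 8 values in alb-SREBP-1a∆P liver under the alb-SREBP-1a range. Hspd1 fell by 0.78 ± 0.08 in alb-SREBP-1a∆P liver (limma, adjusted p = 2.24e-06) and by 0.57 ± 0.08 in alb-SREBP-1a liver (limma, adjusted p = 0.000136), both against C57Bl6 liver. The difference of −0.21 ± 0.07 between both transgenic lines (limma, adjusted p = 0.0317) was −0.02 under cyclic loess. The other Hspd1 probe set gave larger falls of 1.24 ± 0.12 in alb-SREBP-1a∆P and 0.92 ± 0.13 in alb-SREBP-1a against C57Bl6 liver, and −0.31 ± 0.13 between the lines (limma, adjusted p = 0.0571). Which of these probe sets reads the gene alone was not tested, so the size of the Hspd1 fall is uncertain.

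Hspe1 encodes HSP10, the lid of the chaperonin. Its signals ran from 9.76 to 10.40 with a median of 10.13 in alb-SREBP-1a∆P liver, from 10.25 to 10.86 with a median of 10.46 in alb-SREBP-1a liver and from 10.42 to 11.06 with a median of 10.92 in C57Bl6 liver. The alb-SREBP-1a∆P arrays all lay below the C57Bl6 range, and the alb-SREBP-1a arrays overlapped both other genotypes. Hspe1 fell by 0.74 ± 0.12 in alb-SREBP-1a∆P against C57Bl6 liver (limma, adjusted p = 8e-05) and by 0.42 ± 0.12 against alb-SREBP-1a liver (limma, adjusted p = 0.0104). Between the lines it passed neither under cyclic loess (−0.23) nor after quantile normalization (−0.29). In alb-SREBP-1a against C57Bl6 liver the change of −0.32 ± 0.11 did not pass (limma, adjusted p = 0.0773), and it passed after quantile normalization (limma, adjusted p = 0.0467), with dim probe sets removed (0.0397) and with array weights (0.0470). The other Hspe1 probe set gave −0.68 ± 0.11, −0.39 ± 0.12 and −0.29 ± 0.12 in the same order of comparisons.

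Hspa9 encodes mortalin, the HSP70 of the matrix. Values on the arrays ran from 10.49 to 10.71 with a median of 10.61 in alb-SREBP-1a∆P liver, from 10.88 to 11.11 with a median of 11.04 in alb-SREBP-1a liver and from 10.78 to 11.48 with a median of 11.23 in C57Bl6 liver. The 8 values in alb-SREBP-1a∆P liver were the lowest of all 24, while the alb-SREBP-1a arrays lay inside the wider C57Bl6 range. Hspa9 fell by 0.58 ± 0.09 in alb-SREBP-1a∆P against C57Bl6 liver (limma, adjusted p = 8.58e-05) and by 0.42 ± 0.06 against alb-SREBP-1a liver (limma, adjusted p = 0.000159). The value in alb-SREBP-1a against C57Bl6 liver was −0.16 ± 0.09 (limma, adjusted p = 0.277).

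**Figure D2:**
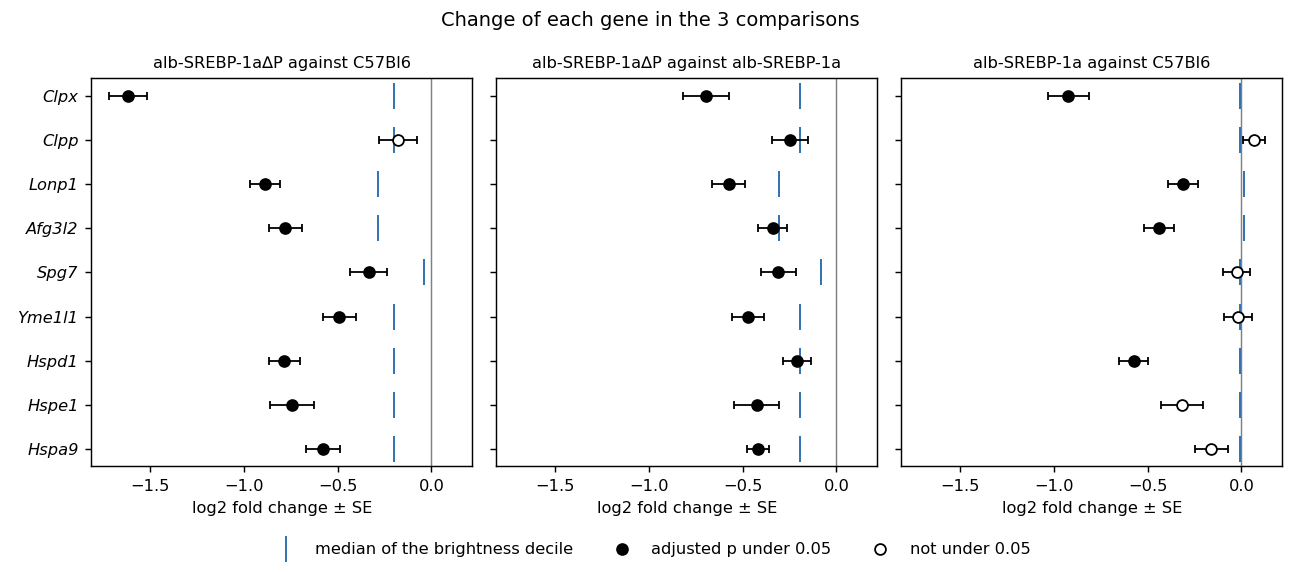
Log2 fold change ± SE (horizontal axis) of the 9 genes in the 3 comparisons, filled where the adjusted p is under 0.05, with the median change of all probe sets in the same decile of brightness as a blue bar. Clpx stands furthest left in each panel, and Clpp, Afg3l2 and Hspd1 lie at or near the blue bar in alb-SREBP-1a∆P liver against that of alb-SREBP-1a.

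Bright probe sets in general were lower in alb-SREBP-1a∆P liver. The SD of the log2 signals on an array was 2.02 to 2.09 in alb-SREBP-1a∆P, 2.14 to 2.23 in alb-SREBP-1a and 2.18 to 2.25 in C57Bl6 liver. With all probe sets divided into deciles by mean signal, Spg7 lay in decile 7, Lonp1 and Afg3l2 in decile 9 and the other 6 genes in the brightest, decile 10. In alb-SREBP-1a∆P against C57Bl6 liver 28.6%, 53.3% and 47.2% of the probe sets of these deciles fell, with medians of −0.04, −0.29 and −0.20. In alb-SREBP-1a∆P liver against that of alb-SREBP-1a 29.3%, 62.3% and 46.1% fell, with medians of −0.08, −0.31 and −0.20. The falls of 8 and of 9 of the 9 genes are to be read against these shares too. How far the spread of the arrays contributes to the falls was not tested.

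Measured from the median of its own decile, Clpx stood at −1.42 in alb-SREBP-1a∆P against C57Bl6 liver and at −0.50 against alb-SREBP-1a liver. Lonp1 stood at −0.60 and −0.27, Hspd1 at −0.59 and −0.01, and Hspe1 at −0.55 and −0.23 in the same comparisons. Afg3l2 stood at −0.49 against C57Bl6 and at −0.03 against alb-SREBP-1a liver, and Clpp at 0.02 and −0.05. Yme1l1, Spg7 and Hspa9 stood between −0.22 and −0.38 in both. In alb-SREBP-1a against C57Bl6 liver the medians of the 3 deciles lay between −0.01 and 0.01, and 4.25%, 7.76% and 14.5% of their probe sets fell. The values of Clpx, Hspd1, Afg3l2 and Lonp1 there are thus nearly the same with and without this step, at −0.92, −0.57, −0.45 and −0.32.

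**Figure D3:**
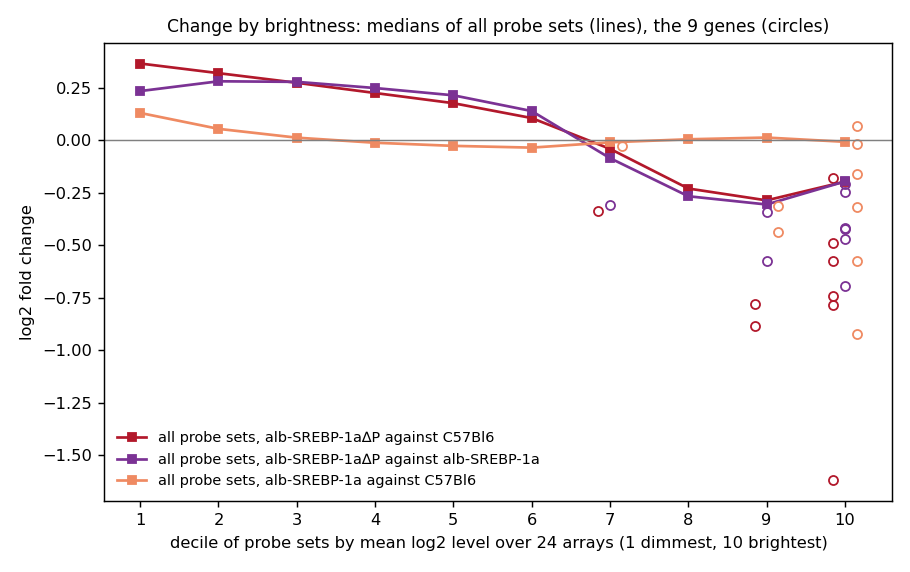
Median log2 fold change (vertical axis) of all probe sets by decile of mean signal (horizontal axis) in the 3 comparisons (curves), with the 9 genes as open circles, set slightly apart for each comparison. Both curves of alb-SREBP-1a∆P liver run from above 0 in dim probe sets to −0.20 in the brightest decile, that of alb-SREBP-1a against C57Bl6 liver stays near 0 in the bright deciles, and most circles lie below their curve.

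The partners of a complex were set against each other within each array, where a shift of the whole array cancels. A shift that differs with brightness need not cancel. The difference of signals from different probe sets has no meaning as a ratio of transcripts, and only its change between genotypes is read. Clpx minus Clpp ran from −1.22 to −0.36 in alb-SREBP-1a∆P liver, from −0.87 to −0.14 in alb-SREBP-1a liver and from 0.37 to 0.73 in C57Bl6 liver. No array of either line reached the C57Bl6 range. Between alb-SREBP-1a and C57Bl6 liver the change was −0.99 (two-sided exact permutation p = 0.000155, the smallest that 8 against 8 arrays allow, adjusted p = 0.00109 over 7 tests). For alb-SREBP-1a∆P liver the differences were −1.44 against C57Bl6 and −0.45 against alb-SREBP-1a liver, given with no test. The tested change uses the same C57Bl6 arrays and is not independent of them.

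Afg3l2 minus Spg7 averaged 1.81 ± 0.29 in alb-SREBP-1a∆P, 1.84 ± 0.14 in alb-SREBP-1a and 2.25 ± 0.24 in C57Bl6 liver (SD, n = 8 each). Against C57Bl6 liver it fell by 0.44 in alb-SREBP-1a∆P (exact permutation, adjusted p = 0.0156) and by 0.41 in alb-SREBP-1a (exact permutation, adjusted p = 0.00544). The first did not pass after quantile normalization (−0.26) or cyclic loess (−0.30). Between the lines it was −0.03 (exact permutation, adjusted p = 0.812). Afg3l2 lies in decile 9 and Spg7 in decile 7, whose medians in alb-SREBP-1a∆P against C57Bl6 liver were −0.29 and −0.04. How far this gap enters the fall of 0.44 was not tested.

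Hspd1 minus Hspe1 averaged 0.12 ± 0.15 in alb-SREBP-1a∆P, −0.10 ± 0.19 in alb-SREBP-1a and 0.16 ± 0.21 in C57Bl6 liver (SD, n = 8 each). The change was −0.26 in alb-SREBP-1a against C57Bl6 liver and 0.22 in alb-SREBP-1a∆P liver against the other line (exact permutation, adjusted p = 0.0396 each), while alb-SREBP-1a∆P against C57Bl6 liver gave −0.04 (exact permutation, adjusted p = 0.770). Without alb-SREBP-1a replicates 1 and 2 neither passed (−0.20 and 0.16). With both probe sets of each gene averaged, the change in alb-SREBP-1a∆P against C57Bl6 liver was −0.30 (exact permutation, adjusted p = 0.0344), so the reading of this pair depends on the Hspd1 probe set.

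**Figure D4:**
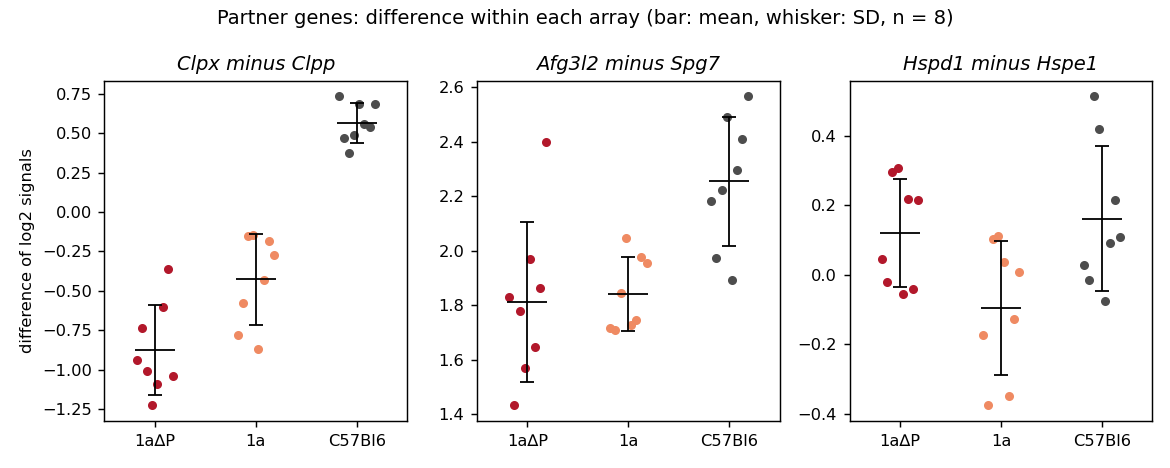
Difference of the log2 signals of partner genes within each array (vertical axes) in alb-SREBP-1a∆P (1a∆P), alb-SREBP-1a (1a) and C57Bl6 liver, with mean and SD of 8 arrays. Clpx minus Clpp is below 0 in all 16 transgenic arrays and above 0 in all 8 C57Bl6 arrays, and the other pairs overlap between genotypes.

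Within genotypes the 9 genes varied together only loosely. With each value taken from its genotype mean, the correlation over the 24 arrays ran from −0.06 (Afg3l2 and Spg7) to 0.76 (Afg3l2 and Yme1l1) over 36 pairs, with a median of 0.40 and 35 pairs above 0. All pairs share the scaling of the arrays, so that these values describe and test nothing. The genes most like Clpx by this measure, of 19937, were Hibch, a hydrolase of valine breakdown (r = 0.90), Afm, a plasma carrier of the albumin family (r = 0.87), Immp1l, a peptidase of the inner membrane (r = 0.86), Dennd10 (r = 0.85) and Zbtb6 (r = 0.84). Over all genes r had a median of −0.04 and reached 0.59 at the 95th percentile. Hibch was at −0.70 in alb-SREBP-1a∆P and −0.05 in alb-SREBP-1a against C57Bl6 liver, so it was alike within genotypes but not in the step between alb-SREBP-1a and C57Bl6 liver.

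The other proteases and peptidases of mitochondria were mostly lower in alb-SREBP-1a∆P liver. Of 12 measured, 11 fell in alb-SREBP-1a∆P against C57Bl6 liver with a median of −0.50, and 11 fell against alb-SREBP-1a liver with a median of −0.45. After cyclic loess these counts were 9 and 2. The list has a median level of 7.65, in decile 9, where 53.3% and 62.3% of all probe sets fell in the same comparisons. Oma1, the stress-activated protease that also cuts OPA1, fell by 0.84 ± 0.13 and 0.63 ± 0.11 in these comparisons, Lactb by 0.57 ± 0.09 against C57Bl6 liver, and Parl, the rhomboid protease that cuts PINK1, by 0.45 ± 0.08 against alb-SREBP-1a liver, where cyclic loess left it at −0.16 (limma, adjusted p = 0.122). In alb-SREBP-1a against C57Bl6 liver 0 of 12 passed in limma on the deposited values, with 5 lower at an unadjusted p under 0.05. There 3 fell after quantile normalization, 1 under cyclic loess and 1 by the methods' t-test after adjustment.

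Partners of the chaperones comprised 12 genes with a median level of 8.05, also in decile 9 with its shares of 53.3% and 62.3%. Of these 9 fell in alb-SREBP-1a∆P against C57Bl6 liver (5 after quantile normalization, 4 after cyclic loess), and 11 fell against alb-SREBP-1a liver (6 and 3). Trap1, the HSP90 of the matrix, fell by 0.61 ± 0.08 and Dnajc11 by 0.74 ± 0.08 against C57Bl6 liver. Dnaja3, a J-protein that serves HSPA9, fell by 0.55 ± 0.08 against C57Bl6 and by 0.53 ± 0.08 against alb-SREBP-1a liver. In alb-SREBP-1a against C57Bl6 liver none fell by limma on the deposited values or by the methods' t-test (1 at an unadjusted p under 0.05), and 1 fell after quantile normalization and 1 under cyclic loess. There Dnajc15, a J-protein of the import motor, rose by 0.34 ± 0.08, as did Hscb, a J-protein of iron-sulfur cluster assembly, by 0.36 ± 0.09 (limma, adjusted p = 0.155 with all 24 arrays in 1 fit and 0.0742 without alb-SREBP-1a replicates 1 and 2).

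Regulators and scaffolds of the inner-membrane proteases all fell in alb-SREBP-1a∆P liver, 6 of 6 measured against both other genotypes (4 against alb-SREBP-1a liver after cyclic loess). Their median level of 7.95 lies in decile 9, where 53.3% and 62.3% of all probe sets fell against C57Bl6 and alb-SREBP-1a liver. The prohibitin Phb2 fell by 0.37 ± 0.06 against C57Bl6 and by 0.35 ± 0.06 against alb-SREBP-1a liver. Maip1, which assists the protease of AFG3L2, fell by 0.85 ± 0.12 against alb-SREBP-1a liver. Afg3l1, the mouse paralogue of Afg3l2, fell by 0.62 ± 0.09 in alb-SREBP-1a∆P and by 0.34 ± 0.07 in alb-SREBP-1a against C57Bl6 liver, and no other gene of this list was called in alb-SREBP-1a against C57Bl6 liver.

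Transcripts of 8 known substrates were read as well. In alb-SREBP-1a∆P liver 6 fell against C57Bl6 liver (3 after quantile normalization or cyclic loess) and 5 against alb-SREBP-1a liver. Their median level of 8.81 lies in decile 10, where 47.2% and 46.1% of all probe sets fell in these comparisons. Tfam, the packaging protein of mitochondrial DNA and a substrate of LONP1, fell by 1.03 ± 0.14 against C57Bl6 and by 0.88 ± 0.14 against alb-SREBP-1a liver. Timm17a, an import subunit degraded by YME1L1, fell by 0.85 ± 0.13 and 0.78 ± 0.13 in the same comparisons. Opa1 fell by 0.54 ± 0.09 against C57Bl6 liver. Mrpl32, the ribosomal protein matured by the AFG3L2 protease, was 0.36 ± 0.09 higher in alb-SREBP-1a than in C57Bl6 liver (limma, adjusted p = 0.0646 with all 24 arrays in 1 fit) and fell by 0.73 ± 0.13 in alb-SREBP-1a∆P liver against that of alb-SREBP-1a. Alas1, the first enzyme of heme synthesis, which CLPX activates and the matrix proteases degrade, passed in no comparison, with −0.41 ± 0.39 in alb-SREBP-1a∆P and 0.11 ± 0.27 in alb-SREBP-1a against C57Bl6 liver.

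The import machinery passed the test less evenly. Its median level of 7.68 lies in decile 9. In alb-SREBP-1a∆P liver 53.3% and 62.3% of the probe sets of that decile fell against C57Bl6 and alb-SREBP-1a liver. Of 22 genes 13 fell and 1 rose in alb-SREBP-1a∆P against C57Bl6 liver, and 12 fell against alb-SREBP-1a liver, where the list median of −0.24 became 0.01 under cyclic loess. Against C57Bl6 liver 9 fell and 3 rose after quantile normalization, 7 fell and 4 rose under cyclic loess and 18 fell and 0 rose with each array centred on its median. Against alb-SREBP-1a liver 6, 5 and 22 fell under these scalings. In alb-SREBP-1a against C57Bl6 liver 3 fell and 2 rose. Samm50, the channel that inserts outer-membrane barrels, fell by 0.98 ± 0.10 in alb-SREBP-1a∆P and by 0.75 ± 0.09 in alb-SREBP-1a against C57Bl6 liver. Mtx1, which works with SAMM50, rose by 0.40 ± 0.06 and the small TOM subunit Tomm6 by 0.48 ± 0.10 in alb-SREBP-1a liver. Timm8a1, a small chaperone of the intermembrane space, fell by 1.00 ± 0.08 in alb-SREBP-1a∆P against C57Bl6 liver.

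**Figure D5:**
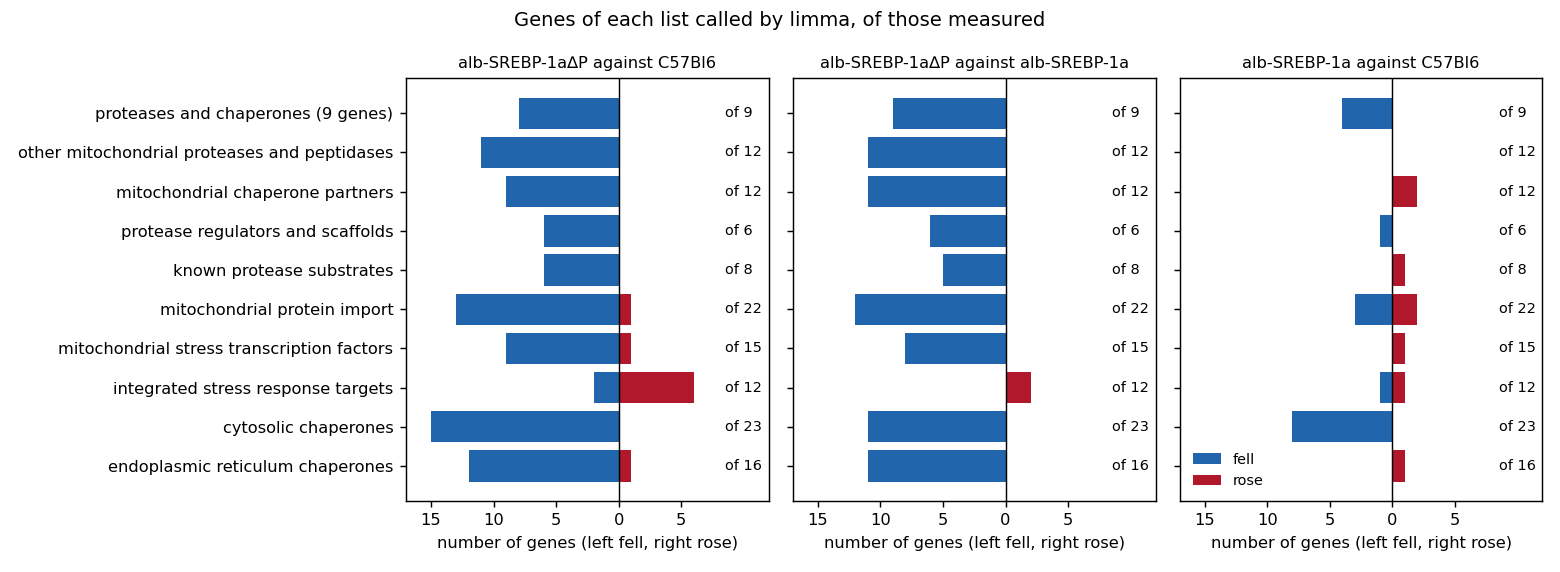
Number of genes of each list (rows) that fell (left of 0) or rose (right of 0) by limma on the deposited values in the 3 comparisons, with the number measured at the right. In alb-SREBP-1a∆P liver the mitochondrial lists consist mainly of genes that fell, and in alb-SREBP-1a against C57Bl6 liver only the 9 genes themselves and the cytosolic chaperones have more than 3 that fell.

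Among 15 transcription factors tied to mitochondrial stress and biogenesis, Atf5, which drives the mitochondrial unfolded protein response, rose in both lines against C57Bl6 liver, by 0.58 ± 0.09 in alb-SREBP-1a∆P and 0.51 ± 0.09 in alb-SREBP-1a. Hsf2, a heat shock factor, fell by 0.86 ± 0.11 in alb-SREBP-1a∆P against C57Bl6 and by 0.77 ± 0.12 against alb-SREBP-1a liver, and Gabpa by 0.73 ± 0.11 against alb-SREBP-1a liver. Atf4 fell by 0.46 ± 0.08 in alb-SREBP-1a∆P liver against that of alb-SREBP-1a, which cyclic loess left at −0.22 (limma, adjusted p = 0.0551). On the deposited values 9 of the 15 fell and 1 rose in alb-SREBP-1a∆P against C57Bl6 liver, whereas 7 fell and 2 rose after quantile normalization and 4 fell and 3 rose under cyclic loess. The median level of the list, 7.45, lies in decile 8, where 46.1% of all probe sets fell and 11.4% rose in that comparison. In alb-SREBP-1a against C57Bl6 liver Atf5 was the 1 gene called by limma on the deposited values. There 2 rose after quantile normalization, centring, cyclic loess and by the methods' t-test, and 1 fell after quantile normalization and under cyclic loess.

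Of 12 measured targets of the integrated stress response 6 rose and 2 fell in alb-SREBP-1a∆P against C57Bl6 liver, and 2 rose after quantile normalization or centring. Under cyclic loess 4 rose and 1 fell. Chac1, an enzyme of glutathione breakdown, rose by 0.69 ± 0.10 in alb-SREBP-1a∆P and by 0.46 ± 0.09 in alb-SREBP-1a against C57Bl6 liver. Phgdh, the entry enzyme of serine synthesis, rose by 0.51 ± 0.11 in alb-SREBP-1a∆P against C57Bl6 and by 0.92 ± 0.16 against alb-SREBP-1a liver. These probe sets are dim, with a list median of 5.83 over all arrays. That level lies in decile 6, where 24.0% of all probe sets rose and 12.5% fell in alb-SREBP-1a∆P against C57Bl6 liver.

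Chaperones outside mitochondria fell in part. In alb-SREBP-1a∆P against C57Bl6 liver 15 of 23 cytosolic chaperones fell, and 8 did in alb-SREBP-1a liver, with medians of −0.36 and −0.21. Their median level of 8.77 lies in decile 10, where 47.2% and 14.5% of all probe sets fell in these comparisons. Cct6a and Cct8, subunits of the cytosolic chaperonin, fell by 0.79 ± 0.09 and 0.78 ± 0.08 in alb-SREBP-1a∆P against C57Bl6 liver. The J-protein Dnajb1 fell by 0.51 ± 0.10 and the HSP70 helper Hspa4l by 0.53 ± 0.09 in alb-SREBP-1a against C57Bl6 liver. Of 16 chaperones of the endoplasmic reticulum 12 fell and 1 rose in alb-SREBP-1a∆P against C57Bl6 liver (6 and 3 under cyclic loess), Pdia4 by 0.63 ± 0.07. The median level of this list, 10.65, lies in decile 10 too. In alb-SREBP-1a liver Creld2 rose by 0.47 ± 0.12 and no other gene of that list passed.

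Markers of liver cells were read beside these changes. The hepatocyte markers, 6 of 6 measured, were at a summed log2 signal of 16.02 to 16.22 in alb-SREBP-1a∆P, 16.06 to 16.35 in alb-SREBP-1a and 16.27 to 16.43 in C57Bl6 liver, and 4 fell in alb-SREBP-1a∆P and 2 in alb-SREBP-1a against C57Bl6 liver. Their median level lies in decile 10, where 47.2% and 14.5% of all probe sets fell in these comparisons. The Kupffer cell and macrophage markers, 6 of 6, were at 10.78 to 11.56 in alb-SREBP-1a∆P, 10.89 to 11.48 in alb-SREBP-1a and 10.48 to 11.01 in C57Bl6 liver, and 2 rose in alb-SREBP-1a∆P and 4 in alb-SREBP-1a liver. Of the 6 endothelial markers 2 passed in alb-SREBP-1a∆P liver, 1 in each direction, and 2 rose in alb-SREBP-1a liver, both against C57Bl6 liver. The median levels of the macrophage and endothelial lists lie in decile 9. Against C57Bl6 liver 10.5% of its probe sets rose and 53.3% fell in alb-SREBP-1a∆P liver, and 13.3% rose in alb-SREBP-1a liver. All 3 measured adipocyte markers rose in alb-SREBP-1a∆P against C57Bl6 liver. Their summed signal was 6.39 to 7.15 in alb-SREBP-1a∆P, 5.82 to 6.58 in alb-SREBP-1a and 6.16 to 6.40 in C57Bl6 liver. These markers are dim, with a median level in decile 3, where 40.5% of all probe sets rose in that comparison. The stellate cell, lymphocyte, cholangiocyte, erythroid and pancreatic acinar lists gave 2 called genes in alb-SREBP-1a∆P liver, a lymphocyte and an acinar marker, and 1 in alb-SREBP-1a liver, a lymphocyte marker, all higher than in C57Bl6 liver. Between the 2 transgenic lines, where all 9 genes fell on the deposited values, 0 of 6 hepatocyte markers passed, and 3 of 6 Kupffer cell and macrophage, 3 of 6 endothelial and 1 of 5 lymphocyte markers fell in alb-SREBP-1a∆P liver. Of all probe sets 46.1% fell between the lines in decile 10, that of the hepatocyte markers, and 62.3% in decile 9. The median level of the lymphocyte markers lies in decile 3, where 1.80% fell. Of the 6 stellate cell markers 2 fell and 1 rose between the lines, with a summed signal of 9.78 to 10.12 in alb-SREBP-1a∆P and 10.06 to 10.20 in alb-SREBP-1a liver. Their median level lies in decile 8, where 51.6% of all probe sets fell and 9.51% rose. The Kupffer cell and macrophage median between the lines, −0.25, became −0.05 after quantile normalization and 0.02 under cyclic loess. That of the endothelium, −0.27, became −0.10 and −0.01, and that of stellate cells, −0.14, became −0.04 and 0.03. With centring they stood at −0.42, −0.44 and −0.30. The lymphocyte median of −0.16 became −0.41 after quantile normalization and −0.43 under loess. In the same comparison 2 of 3 adipocyte and 2 of 2 pancreatic acinar markers rose. The acinar sum lay at 6.96 to 7.35 in alb-SREBP-1a∆P and 6.59 to 6.95 in alb-SREBP-1a liver. In decile 3, that of the adipocyte markers, 38.3% of all probe sets rose between the lines. The median level of the acinar markers lies in decile 6. There 26.7% of all probe sets rose between the lines and 24.0% in alb-SREBP-1a∆P against C57Bl6 liver. The endothelial markers were at 10.43 to 10.79 in alb-SREBP-1a∆P, 10.64 to 10.996 in alb-SREBP-1a and 10.60 to 11.01 in C57Bl6 liver. No marker was listed at 0, and the part of the cell mixture in the changes of the 9 genes was not tested.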

How the data were processed

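Liver RNA of 24 mice was hybridised to Affymetrix Mouse Gene 1.0 ST arrays. The authors ran RMA in Expression Console, and the deposited log2 signals were used without further scaling. Of 35556 probe sets, 21789 carry 1 gene symbol in the platform annotation, 1621 several and 12146 none. The annotation build is not given in the sources used here, and positions and sequences come from RefSeq on GRCm38.p6. RMA combines the probes of a set into 1 value, and a probe set may read near-identical copies of a gene together.

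Pairs of genotypes were fitted with limma (3.58.1, under R 4.3.3) on 8 against 8 arrays, with Benjamini-Hochberg adjustment over all probe sets. The p-values cover the spread between mice of a genotype. Partner differences were tested by exact permutation over 12870 splits. The 9 genes and all lists were chosen with earlier results of these data known, so their counts and p-values describe these arrays and are no fresh test. All 9 genes are named by their probe set of highest mean. Of each list and comparison up to 3 called genes of smallest p are named, lists of 8 or fewer genes may be named in full, and the 5 genes most like Clpx are given.

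Alternatives were all arrays in 1 fit, a replicate block, quantile normalization, centring on the median, cyclic loess, removal of dim probe sets, a variance trend, array weights, the mean or brightest probe set per gene, the methods' t-test, and fits without alb-SREBP-1a∆P replicate 4, and without replicates 1 and 2 of alb-SREBP-1a. The other probe sets of Hspd1 and Hspe1 were added after seeing the data. The fits were tested on simulated data. Python 3.11.15, numpy 2.4.6, pandas 2.3.3 and matplotlib 3.10.9 served for tables and figures. The number of arrays limits precision.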

Additional observations from a re-analysis of the deposited data

How the results depend on the processing

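The number of the 9 genes called kept within 1.5 times of its value in all 3 comparisons and settings but for alb-SREBP-1a∆P liver against that of alb-SREBP-1a, where quantile normalization and cyclic loess left 4 of 9. Reversed in sign were Yme1l1 in alb-SREBP-1a against C57Bl6 liver without alb-SREBP-1a replicates 1 and 2 (0.017), Spg7 there with array weights (0.0037), and Clpp under cyclic loess in alb-SREBP-1a∆P liver (0.068 against C57Bl6, 0.010 against alb-SREBP-1a liver), none of them called there. Afg3l2 minus Spg7 was −0.26 and −0.30 in alb-SREBP-1a∆P against C57Bl6 liver after quantile normalization and loess, and 0.15, 0.12 and 0.0053 against alb-SREBP-1a liver after quantile normalization, loess and without alb-SREBP-1a∆P replicate 4. Hspd1 minus Hspe1 in alb-SREBP-1a against C57Bl6 liver was −0.20 without alb-SREBP-1a replicates 1 and 2 and −0.26 under loess. In alb-SREBP-1a∆P liver against that of alb-SREBP-1a it was 0.14 with gene means, 0.19 without alb-SREBP-1a∆P replicate 4, 0.16 without alb-SREBP-1a replicates 1 and 2 and 0.21 under loess, and in alb-SREBP-1a∆P against C57Bl6 liver −0.30 with gene means. The cause was not tested.

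The labels give replicate numbers no meaning beyond a running number (same-numbered arrays correlated at −0.12 to 0.28, with 1 or 2 of 8 pairs over 0.1). Whether they also mark a batch is not known. With a replicate block 4 of the 9 genes fell in alb-SREBP-1a liver and 8 in alb-SREBP-1a∆P liver against C57Bl6 liver, and 7 between the lines, Clpp (adjusted p = 0.0789) and Hspd1 (0.0921) being lost in the last. Of all probe sets 3.17%, 19.6% and 18.5% fell under the block in these comparisons. Of 666 counts for the lists 81 moved beyond 1.5 times.

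Over all probe sets the share of calls that were higher in alb-SREBP-1a∆P against C57Bl6 liver was 57.1%, and 40.6%, 31.9% and 51.2% after quantile normalization, centring and loess, which shift the median by −0.14, −0.16 and −0.11. In alb-SREBP-1a∆P liver against that of alb-SREBP-1a it was 51.6%, and 41.1%, 23.9% and 52.2% with shifts of −0.10, −0.17 and −0.09, and in alb-SREBP-1a against C57Bl6 liver 63.0%, and 51.6%, 66.8% and 56.8%. The median change of the 9 genes stayed below 0 under each, from −0.51 to −0.90 in alb-SREBP-1a∆P against C57Bl6, from −0.21 to −0.58 against alb-SREBP-1a liver and from −0.30 to −0.33 in alb-SREBP-1a against C57Bl6 liver. At the methods' thresholds, an unadjusted p under 0.05 and 1.5-fold, 1 of the 9 genes fell in alb-SREBP-1a liver and 5 in alb-SREBP-1a∆P liver against C57Bl6 liver, and 1 between the lines. Of all probe sets 0.951%, 6.66% and 4.09% fell at these thresholds in the same order. The count in alb-SREBP-1a liver depends on the Hspd1 probe set. The one used stood at 67.1% of the C57Bl6 signal, just short of 1.5-fold, and the other at 52.7%, beyond it. No detection call against background was used, and Spg7 had the least signal of the 9.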
